A study of Cervus nippon with 4 samples.

Results

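The deposited files listed 326981 gene models for sika deer back muscle, and 5544 reached 15 FPKM or more in at least 1 library. Of these, 43 met a rule for a gradual rise from the youngest to the oldest library. These 43 gradually rising gene models are described here. They were chosen by their measured FPKM, a number of fragments adjusted for gene model length and library size. FPKM + 0.1 had to go up by at least 1.2-fold at each of 3 steps, the first from Msc_1 to Msc_2 (1 to 3 years of age), the second from Msc_2 to Msc_3 (3 to 5 years) and the last from Msc_3 to Msc_4 (5 to 10 years), and the FPKM of Msc_2 could be at most 2 times that of Msc_1. The upward course is therefore a condition of membership and not a result, and the values below describe it without a test.

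The muscle was the longissimus dorsi, which runs along the back, of Shuangyang sika deer that were juvenile (1 year of age, Msc_1), adolescent (3 years, Msc_2), adult (5 years, Msc_3) or aged (10 years, Msc_4). The deer were fasted before slaughter, and the sources name no other treatment and no sex. For each age 3 deer went into 1 pool and 1 library, so that variation among deer of an age was not measured and no difference below has a replicate check. In pooled tissue, more cells of a type and more RNA per cell cannot be told apart.

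Skeletal muscle is built of long multinucleated fibres, and most of its messenger RNA codes for the proteins of the contractile filaments and for the enzymes that supply them with energy. The rest of the tissue holds satellite cells, which renew fibres, and blood vessels, nerves, fat and connective tissue. Fibre size and type, fat and connective tissue are known to shift as mammals grow and age, in part over years, and a slow change in the abundance of a transcript can come from the fibres or from any of these other cells. The gene models are named by an assembly component and a gene number within it. The files give no gene names and no sequences for them, so neither the functions of the 43 gene models nor the markers of muscle and other cell types could be looked up.

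All 43 rising gene models were listed in all 4 libraries. The rule fixed this, because a gene model not listed in Msc_1 could not meet its terms for the first step. Their median level was 11.95 FPKM at 1 year, 15.61 at 3 years, 28.75 at 5 years and 41.74 at 10 years. The lowest member of each library had 2.05, 2.76, 8.05 and 15.15 FPKM in this order, and the highest had 487.8, 667.85, 966.37 and 1620.38 FPKM. In Msc_1, 20 of the 43 were already at 15 FPKM or more, against 23 in Msc_2, 31 in Msc_3 and all 43 in Msc_4. The ranges of the 4 libraries overlapped widely, and the starting levels of the members spanned a wider range than their rises.

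**Figure D1:**
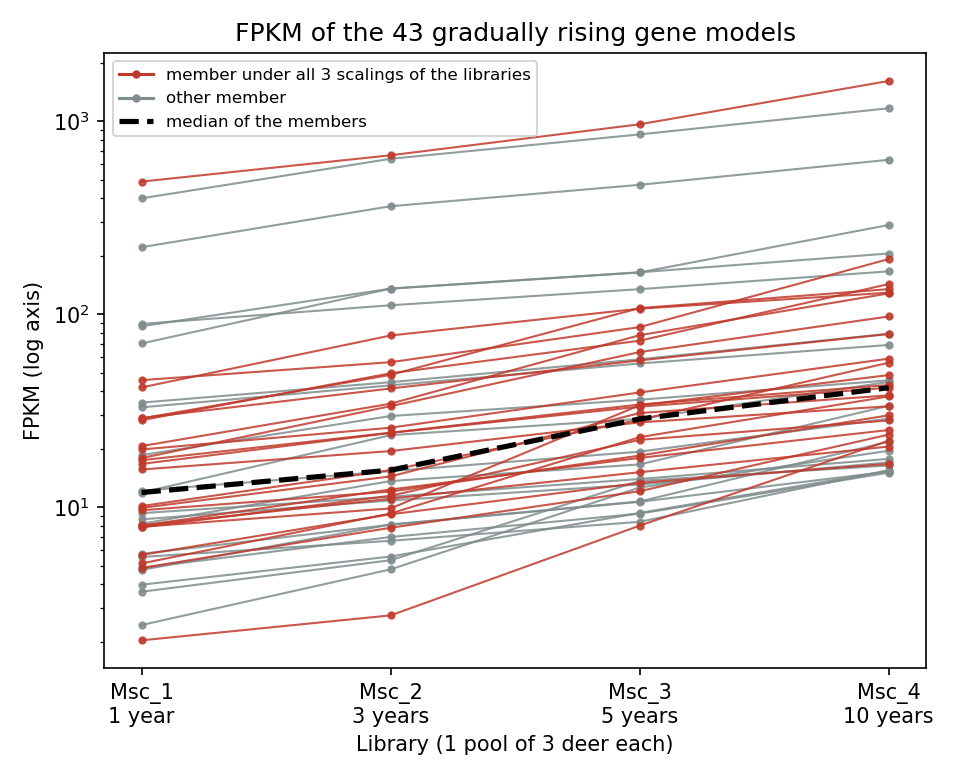
FPKM (log axis) of each of the 43 rising gene models in the 4 libraries, 1 line per gene model, with the median as a dashed line. The 23 red lines are the gene models that also met the rule under each of 3 scalings of the libraries, and the median goes from 11.95 FPKM in Msc_1 to 41.74 FPKM in Msc_4.

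The member with the most transcript, c684502_g4, had 487.8 FPKM at 1 year, 667.85 at 3 years, 966.37 at 5 years and 1620.38 at 10 years. Msc_4 held 3.32 times the level of Msc_1 (FPKM + 0.1). In the deposited FPKM each step was larger than the one before it, at 1.37-, 1.45- and 1.68-fold. Under each of the 3 scalings of the libraries described below, the second step was instead smaller than the first. Among all gene models of a library its place by FPKM went from 139 in Msc_1 to 107, 89 and 59 in the older libraries. A place within a library does not depend on a factor applied to the whole library, but this member was chosen for its rise.

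The next member by level had 399.49 FPKM at 1 year, 640.26 at 3 years, 856.59 at 5 years and 1169.88 at 10 years, with its largest step at the youngest ages. The one after it had 223.06, 363.68, 469.46 and 632.77 FPKM in the same order and also took its largest step, 1.63-fold, from 1 to 3 years. These 3 gene models were the only members to reach 300 FPKM, and together they held 58.8% of the summed FPKM of the 43 in Msc_1 and 57.3% in Msc_4.

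The largest rise from Msc_1 to Msc_4 belonged to c682207_g2, with 2.05 FPKM at 1 year, 2.76 at 3 years, 8.05 at 5 years and 22.18 at 10 years. Its first step was small, 1.33-fold, and the following steps were 2.85- and 2.73-fold, so that Msc_4 stood 10.4-fold above Msc_1. In place by FPKM it went from 24880 in Msc_1 to 2830 in Msc_4. The next rise in size, 7.72-fold, was that of a member with 2.46, 4.78, 12.68 and 19.67 FPKM from Msc_1 to Msc_4. It was followed by a member with 5.13, 9.31, 23.13 and 37.61 FPKM, a 7.21-fold rise. All 3 started below the median level of the members in Msc_1. The first 2 of them started below 3.87 FPKM, the worth of 1 fragment on the shortest gene models described below.

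The smallest rise, 1.87-fold, was that of a member with 89.31 FPKM at 1 year, 111.56 at 3 years, 135.21 at 5 years and 167.25 at 10 years. In all, 3 members were less than 2-fold higher in Msc_4 than in Msc_1, 25 were between 2- and 4-fold higher and 15 were 4-fold higher or more. The median difference was 1.63 on the scale of log2(FPKM + 0.1), which slightly understates the change of low gene models. Among the 28 members that peaked below 60 FPKM the median rise was 3.09-fold, among the 12 between 60 and 300 FPKM 3.56-fold, and among the 3 above that 2.93-fold.

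In the deposited FPKM the 3 steps were of similar size over the members as a whole. The median log2 difference was 0.53 at the first step, 0.48 at the second and 0.52 at the last. The largest step was the first in 14 members, the second in 14 and the last in 15. The members with the second step as their largest had a median rise of 4.54-fold from Msc_1 to Msc_4, against 2.78-fold for those with the first and 3.08-fold for those with the last as their largest. The rule limited only the first step upwards.

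Single members differed in how even their course was. The largest step made up between 33.8% and 67.9% of a member's whole log2 rise, with a median of 44.5%, and the 3 steps lay within 0.2 (log2) of each other in 10 members. The most even course was that of a member with 8.07, 11.1, 15.23 and 20.68 FPKM from Msc_1 to Msc_4. The least even was that of a member with 7.94, 9.89, 33.81 and 48.51 FPKM, which took most of its rise between Msc_2 and Msc_3. In 6 members all 3 steps were at least 1.5-fold.

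The ages are not evenly spaced, with 2 years between Msc_1 and Msc_2 and between Msc_2 and Msc_3, and 5 years between Msc_3 and Msc_4. Per year of age the median log2 difference of the members was 0.27, 0.24 and 0.10 in this order. In FPKM per year the medians were 2.72, 4.88 and 2.76. Per year, the last step was thus the smallest on the log2 scale. The rule asked for the same 1.2-fold in the longer interval as in the shorter ones.

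**Figure D2:**
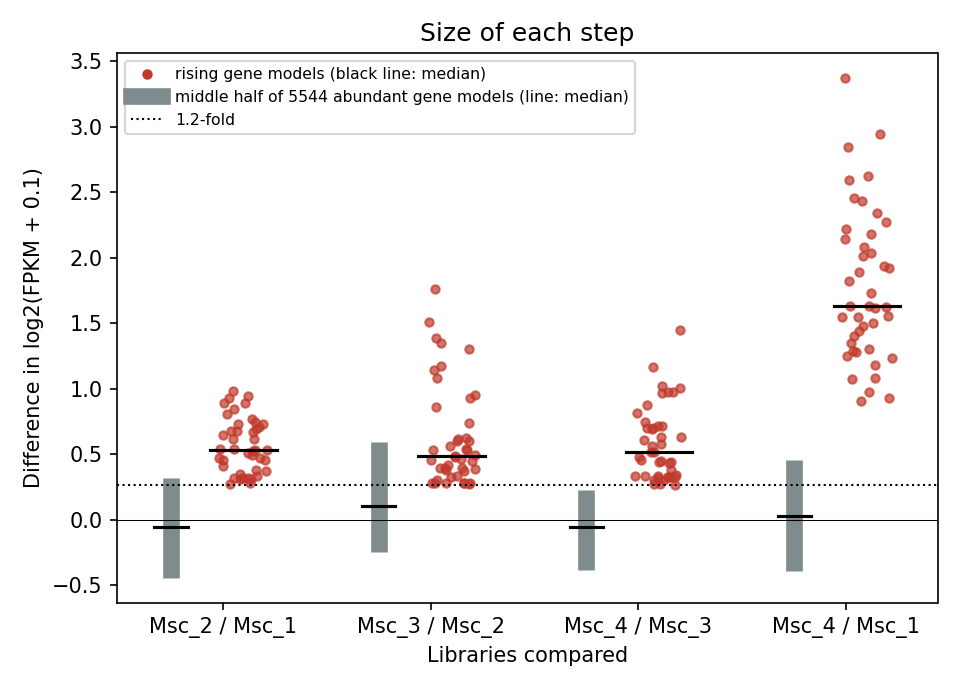
Differences in log2(FPKM + 0.1) between libraries for the 43 rising gene models (red points, black line for their median) beside all 5544 abundant gene models (grey bar from the lower to the upper quartile, black line for the median). The medians of the rising gene models are 0.53, 0.48 and 0.52 at the 3 steps, all above the dotted line at 1.2-fold as the rule required, and the abundant gene models lie higher in Msc_3 vs. Msc_2 than at the other steps.

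The 5544 abundant gene models give the scale against which these steps stand. Their median log2 difference was -0.06 at the first step, 0.11 at the second, -0.05 at the last and 0.03 over all 3 together. Relative to these medians the members were higher by 0.59, 0.38 and 0.57 at the 3 steps and by 1.60 from Msc_1 to Msc_4. The step from Msc_2 to Msc_3 was therefore the one at which the members differed least from other abundant gene models. In this step 40.4% of the other abundant gene models were also up by at least 1.2-fold, against 27.5% at the first step and 22.1% at the last.

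The same step also parted the libraries in the FPKM that 1 fragment could stand for. The worth of 1 fragment on the shortest gene models, taken as the highest value held by at least 25 gene models listed in one library alone, was 3.87 FPKM at 1 year, 3.77 at 3 years, 5.2 at 5 years and 5.41 at 10 years. Between Msc_2 and Msc_3 this worth differed 1.38-fold, more than the 1.2-fold that the rule asked of a step. The Msc_3 vs. Msc_2 step was above it in 23 of the 43 members and at or below it in 20. No length is given for any gene model, and the part of this difference in the members' steps was not tested.

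At this worth, the Msc_1 level of c684502_g4 stood for 126 fragments and that of c682207_g2 for 0.53. In Msc_1, 3 members lay below the worth of 1 fragment. A gene model longer than the shortest ones would have more fragments. Counted in this way, 8 of the 43 members reached 10 fragments at 1 year, 13 at 3 years, 15 at 5 years and 17 at 10 years. For the other members the number of fragments behind the lower values could be small or large and cannot be read from FPKM alone.

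With a difference of more than 2-fold taken as a call, 40 of the 43 members were called higher in Msc_4 vs. Msc_1, where 10.7% of the 5544 abundant gene models were. In Msc_3 vs. Msc_1 it was 23 members beside 11.3% of the abundant gene models, and in Msc_4 vs. Msc_2 24 members beside 6.94%. At the first step 0 members passed 2-fold, as the limit on this step required, where 7.88% of the abundant gene models did. At the second step 8 members passed it, beside 11.3%, and at the last step 4, beside 3.77%. These contrasts had chosen the members, so the counts describe them only.

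Most of the abundant gene models that ended more than 2-fold higher did not go up at each step. Of the 591 called higher in Msc_4 vs. Msc_1, 411 (69.5%) went down at 1 step or more, and 40 were members. By any amount, 174 of the 591 (29.4%) went up at each step, beside 351 of all 5544 (6.33%). The largest of the 3 steps was Msc_2 vs. Msc_1 in 334 of the 591. The members thus made up 6.77% of the abundant gene models that differed by this much between the youngest and the oldest library, and 0.776% of all abundant ones.

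**Figure D3:**
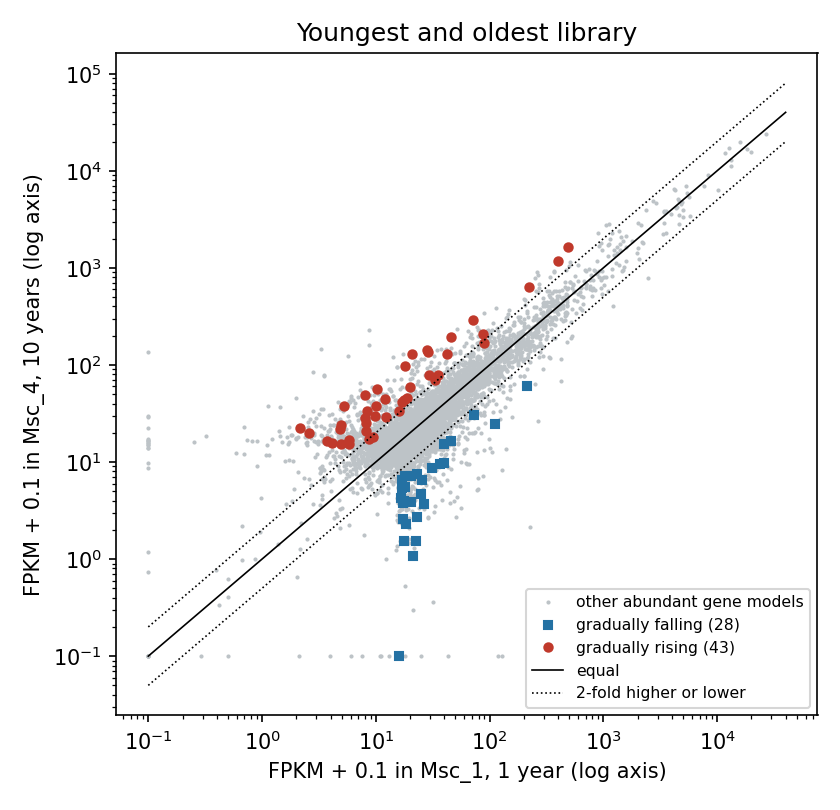
FPKM + 0.1 in Msc_1 and in Msc_4 (log axes) of the 5544 abundant gene models, with the 43 gradually rising ones as red circles and the 28 gradually falling ones as blue squares; the lines mark equal values and a 2-fold difference. Of the rising gene models 40 lie above the upper 2-fold line, and they are spread over the range from 2.05 to 487.8 FPKM in Msc_1.

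Together the 43 gene models held 1887.49 FPKM at 1 year, 2845.96 at 3 years, 4007.9 at 5 years and 5976.24 at 10 years. This was 0.248%, 0.373%, 0.486% and 0.759% of the summed FPKM of these libraries, so that even in Msc_4 they made up a small part of it. The sum was 1.51-, 2.12- and 3.17-fold that of Msc_1 in the 3 older libraries. Without the 3 most abundant members it was 1.51-, 2.21- and 3.29-fold. In place by FPKM the median member went from 5187 in Msc_1 to 3799, 2308 and 1568 in the older libraries.

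**Figure D4:**
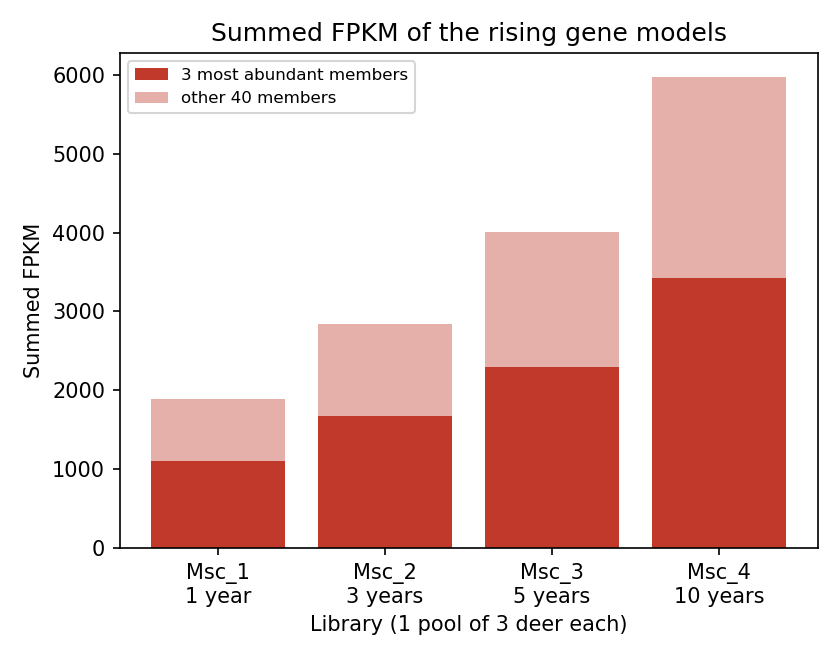
Summed FPKM of the 43 rising gene models in each library, split into the 3 most abundant members and the other 40. The sum goes from 1887.49 FPKM in Msc_1 to 5976.24 FPKM in Msc_4, and the 3 most abundant members hold between 57.2% and 58.8% of it.

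The 43 members came from 42 assembly components. The 1 component with a pair of members held one with 29.07, 41.35, 57.79 and 79.19 FPKM from Msc_1 to Msc_4 and one with 8.23, 13.71, 16.71 and 33.61 FPKM. Such gene models can be copies, alleles or fragments of one gene and may share reads, so they are not independent. A component with no other listed gene model was the source of 34.9% of the members and of 30.6% of all abundant gene models.

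The other gene models of these components were not chosen by the rule. There were 71 of them in 27 components, of which 33 reached 1 FPKM in some library. Of these 33, 16 were called higher by more than 2-fold in Msc_4 vs. Msc_1, which is 48.5%, beside 20.7% of all 67777 gene models that reached 1 FPKM. The median log2 difference was 0.99 for the 33 and 0 for all, on log2(FPKM + 0.1). Shared reads between members and their neighbours were not tested.

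Of these neighbours, 11 reached 15 FPKM, and 9 of them were higher in Msc_4 than in Msc_1, as were 2857 of all 5544 abundant gene models (51.5%). The 2 exceptions included the neighbour of c684502_g4, which had 280 FPKM at 1 year, 119.85 at 3 years, 99.11 at 5 years and 135.43 at 10 years, lower in all 3 older libraries while c684502_g4 was higher in each. The other exception had 16.64, 12.53, 12.4 and 10.01 FPKM, beside a member with 20.79, 34.49, 78.06 and 128.52 FPKM. The most abundant neighbour belonged to the component of the third most abundant member and had 1126.12, 1995.57, 1606.2 and 2837.73 FPKM, higher in Msc_4 but with a dip in Msc_3. At each step 4 of the 11 went up, against 351 of the 5544 (6.33%). Each neighbour shares its component with a member, and these counts are a description.

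The mirror of the rule, with each step down by at least 1.2-fold and the first by at most 2-fold, was met by 28 abundant gene models, 0.505% of the 5544. Their median log2 difference in Msc_4 vs. Msc_1 was -2.01, against 1.63 for the rising ones. The sizes of these medians are not directly comparable. A rising member had to be listed in Msc_1, but a falling gene model could end unlisted in Msc_4, where 27 of the 28 were listed. The median of the 28 in Msc_4 was 5.375 FPKM, close to the 5.41 FPKM taken there as the worth of 1 fragment on the shortest gene models. Of the falling gene models 25 peaked below 60 FPKM, 3 between 60 and 300 FPKM and 0 above, where 28, 12 and 3 of the rising ones did. Among all abundant gene models 4129, 1112 and 303 peaked in these ranges. The rising ones made up 0.678%, 1.08% and 0.99% of them, and the falling ones 0.605%, 0.27% and 0%. The numbers that rose and fell depended on the scaling of the libraries. Rising gene models made up 60.6% of the 71 in the deposited FPKM, 47.0% after use of the trimmed mean of M-values, 51.5% after median-of-ratios scaling and 37.3% after upper-quartile scaling.

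Membership itself depended on the scaling as well. Under the trimmed mean of M-values, 31 gene models met the rule, and 25 of them were among the 43 (58.1% of the members and 80.6% of the 31). Median-of-ratios scaling gave 35 with 29 of the members (67.4% and 82.9%), and upper-quartile scaling gave 25 with 23 of the members (53.5% and 92.0%). Under all 3 scalings together 23 members remained, among them c684502_g4 and c682207_g2. The 4 members ranking next to c684502_g4 in level did not remain.

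Most members that dropped out did so at the second step. Trimmed-mean scaling moved the median of the abundant gene models in this step from 0.11 to -0.05 and that of the members from 0.48 to 0.32. It left 17 members below 1.2-fold in this step, 0 in the other steps, and 3 above the limit on the first step. Dividing each library by its worth of 1 fragment on the shortest gene models, the extreme case, left 9 gene models that met the rule, all of them members, and 23 of the 43 went up at each step. This division moved the median of the abundant gene models in Msc_3 vs. Msc_2 to -0.35 and that of the members to 0.02. It left 31 members below 1.2-fold in this step and 6 in the last. With this division and a centring on the abundant gene models required beside the 3 scalings, both chosen after seeing the data, 8 members remained. Among them was c682207_g2, while c684502_g4 and the rest of the 8 most abundant members in Msc_4 were not. The highest of those that remained had 135.22 FPKM in Msc_4. Counted by the worth of 1 fragment, its Msc_1 level stood for 7.47 fragments and that of c682207_g2 for 0.53. The 8 that remained had a median of 9.055 FPKM in Msc_1 and a median rise of 5.76-fold. Remaining under factors applied to whole libraries does not bear on the number of fragments behind a value.

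**Figure D5:**
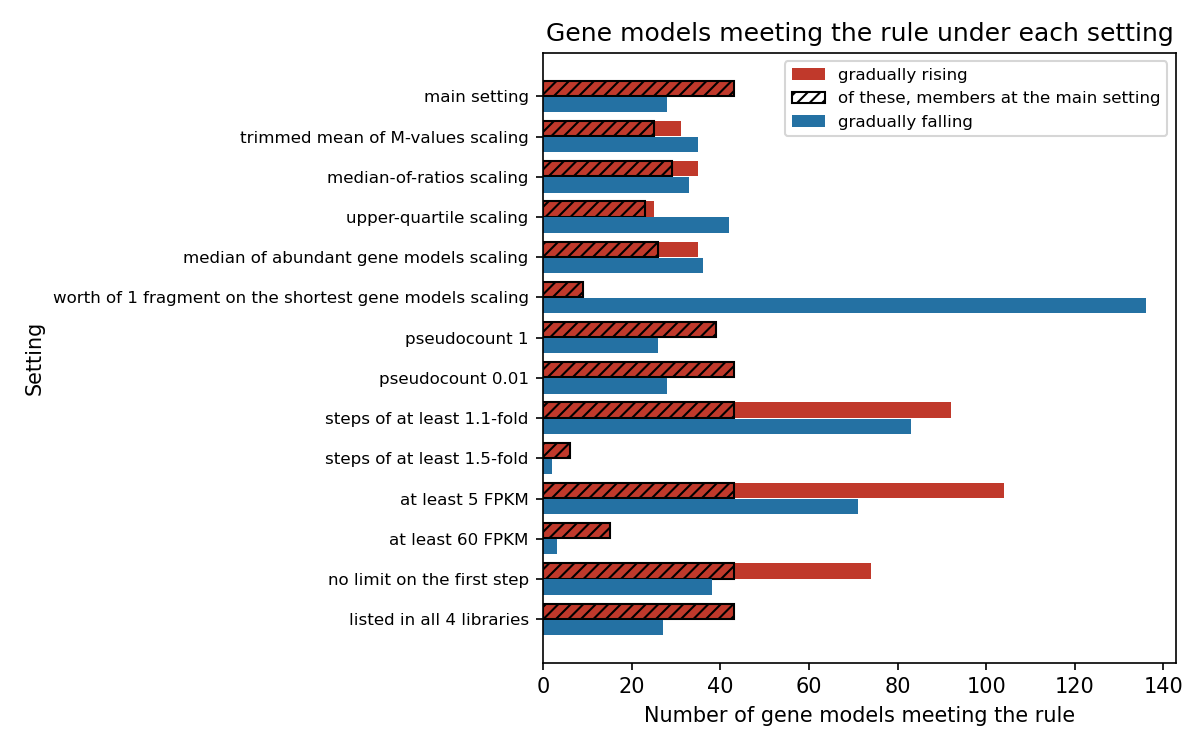
Number of gene models that met the rule (red) or its mirror (blue) under each setting, with the part of the red bars that belongs to the 43 members hatched; the setting without a filter on low values is left out. The main setting gives 43 rising and 28 falling gene models, upper-quartile scaling 25 and 42.

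The limits of the rule cut through a continuous range. The member closest to the step limit had 3.66, 5.33, 13.73 and 16.5 FPKM with a smallest step of 1.2003-fold, and the nearest gene model outside had 10.57, 12.68, 16.39 and 21.51 FPKM with 1.1978-fold. A further 49 abundant gene models had a smallest step between 1.1- and 1.2-fold. At the limit on the first step, the member with 11.95, 23.69, 28.75 and 44.66 FPKM lay just inside, and a gene model with 21.97, 44.45, 67.72 and 108.43 FPKM lay just outside. At the limit on level the last member had 15.15 FPKM in Msc_4 and the first gene model outside 14.76. In all 74 abundant gene models went up by at least 1.2-fold at each step (1.33% of the 5544), and 31 of them were left out by the limit on the first step, 1 of these because it was not listed in Msc_1.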

How the data were processed

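The 4 pooled libraries were run on a HiSeq2500, reads with adaptors or of low quality were dropped, and the authors deposited 1 FPKM value per gene model and library, rounded to 2 decimals. These FPKM were scaled by the authors for length and library. Bowtie 0.12.2 is listed in the submitters' processing notes without a role; assembler, counting program and lengths were not given in the sources used here. Files listed between 170939 and 182429 gene models per library, and FPKM summed to between 761348 and 825006.

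The 4 files were joined by identifier in Python 3.11.15 with pandas 2.3.3 and numpy 2.4.6, and an unlisted value was set to 0. Differences were taken on log2(FPKM + 0.1), unscaled. No test was run, because each age had 1 library; the study's test needs read counts. No counting interval could be given without lengths. Scalings used gene models above 0.3 FPKM; the trimmed mean of M-values dropped 30% of M-values and 5% of A-values at each side, without weights. The code for the rule and for the scalings was run on simulated data, except for the worth of 1 fragment.

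The gene models and lists were chosen with earlier results of these data known. Without gene names, 2 identifiers are given: the member with the highest FPKM in Msc_4 and the one with the largest rise. Others are described by rank or by features that were picked after their values were seen.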

Additional observations from a re-analysis of the deposited data

How the results depend on the processing

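No paired analysis was possible because no age had more than 1 library, which also left nothing to leave out. The number of rising gene models, 43 in the deposited FPKM, stayed within 1.5 times under median-of-ratios scaling, the trimmed mean of M-values and pseudocounts of 1 and 0.01. A listing in all 4 libraries could not change it, because the rule already required one. Upper-quartile scaling gave 25. Under it 17 members fell below 1.2-fold at the second step and 1 at the last. The limit on the first step was passed by 3, and 4 fell below 15 FPKM. A member could fail in more than 1 of these ways. The cause of the shift was not tested. The number of rising gene models was 92 with steps of at least 1.1-fold and 6 with 1.5-fold, 104 with at least 5 FPKM, 15 with at least 60 FPKM and 509 with no filter on low values, and 74 with no limit on the first step. These settings widen or narrow the rule by construction. The number of falling gene models, 28, was 83 and 2 with these steps, and 71, 3 and 591 with these filters.

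The median log2 change of the 43 members in Msc_4 vs. Msc_1, 1.63, was 1.60 under the trimmed mean of M-values, 1.62 under median-of-ratios and 1.53 under upper-quartile scaling, 1.55 with a pseudocount of 1 and 1.64 with 0.01. That of all abundant gene models, 0.03, was 0, 0.015 and -0.074 under these 3 scalings, the last reversed.

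Of the scalings, 2 were chosen after seeing the data. Centring on the abundant gene models left 35 rising and 36 falling gene models and gave medians of 1.60 for the 43 members, not the 35, and 0.00011 for the abundant gene models. Division by the worth of 1 fragment on the shortest gene models gave 9 rising and 136 falling gene models and medians of 1.15 for the 43 members and -0.45 for the abundant gene models. It applies to every gene model a factor read from the shortest ones. The numbers of fragments behind the low members are not known.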

Other observations

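Low deposited values also differed in how they lined up between libraries. Of 17362 gene models at 0.3 to 1.2 FPKM in Msc_1 and in Msc_2, 11.8% shared 1 ratio of Msc_2 to Msc_1 within a width of 0.02 on the log2 scale, and of 19029 such gene models of the other pair 9.85% shared 1 ratio of Msc_4 to Msc_3. For Msc_3 to Msc_2 the most frequent ratio of the same width, at 0.16 on the log2 scale, held 2.81% of 17458 gene models. For Msc_4 to Msc_1 it was at 0.04 and held 3.54% of 17302. Ratios were counted only up to about 0.3 on the log2 scale in either direction. The log2 ratios of the worth of 1 fragment, 0.46 for Msc_3 to Msc_2 and 0.48 for Msc_4 to Msc_1, lay beyond this range. Within the range counted, the values of Msc_1 and Msc_2 thus moved in common steps, as did those of Msc_3 and Msc_4, and less so across these pairs. A common step across the pairs as large as the ratio of the worths was not looked for. The split falls between adolescent and adult deer, so that a difference in processing and a difference in age cannot be told apart at this step.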
